A study of Mus musculus and Homo sapiens with 10 samples.

Results

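Some genes of mESCs give almost no RNA-seq reads in untreated cultures and are read readily once vitamin C (vitC) has been added. The 7 genes described here, Serpina3m, C130073F10Rik, Cyp2b23, Gm20548, Qpct, Akr1c18 and Gm281, were chosen by that behaviour, as having few or no control reads and a clear rise with vitC, out of 25899 genes in the mouse table. The mouse libraries came from E14, an established mESC line, grown in 2i medium, a serum-free medium with LIF and inhibitors of the MAPK/ERK and GSK3 pathways. There were 4 untreated control libraries and 4 libraries from cells given 100 µg/ml vitC for 24 h, with total RNA as the labelled material. Replicates 1 to 4 of both groups carried matching culture labels, and only replicates 3 and 4 share a label number. Replicates 1 and 2, with neighbouring numbers, were taken here as a first set and replicates 3 and 4 as a second. No label states these sets. H9, an established hESC line by its labels, gave 1 untreated library and 1 with the same dose and time. The labels put the human cells in KSR/FGF medium, which the study's methods give for H9-NK2, a derivative with inducible KLF2 and NANOG transgenes, and which of the lines was sequenced is not settled here. The labels also call the human material polyA RNA, whereas the methods describe rRNA depletion of total RNA and no other selection. Control and vitC were compared within a single line for each species, so whether other lines respond alike cannot be told from these libraries.

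VitC keeps the iron of alpha-ketoglutarate-dependent dioxygenases in its reduced form. These enzymes include the TET proteins, which oxidise methylated cytosine in DNA, and the Jumonji histone demethylases, which take methyl groups off histones. Serpina3m belongs to the serine protease inhibitors, a family that is best known from liver and blood plasma. Cyp2b23 is a cytochrome P450 of a family that oxidises steroids and foreign compounds, and Akr1c18 is an aldo-keto reductase that inactivates progesterone. Qpct is a glutaminyl-peptide cyclotransferase, which closes the first residue of peptides into pyroglutamate, and Gm20548 is annotated as a long non-coding RNA. The roles of C130073F10Rik and Gm281 are not described here.

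Gene totals ran from 4489804 to 6921305 reads in the control libraries and from 3354852 to 5826923 in the vitC libraries, so that 1 read stood for 0.144 to 0.298 RPM, where RPM is reads per 1000000 gene reads of the library. The deposited values are variance-stabilised, a log2-like scale that compresses low counts, and the reads behind them were recovered by inverting the transformation. The 10 pluripotency markers, among them Pou5f1, Nanog and Sox2, summed to 5522 to 5967 RPM in control and 5362 to 5911 RPM in vitC libraries. Of 10 hepatocyte markers 7 had no reads in any library (Alb, Afp, Apoa2, Ttr, Serpina1a, Serpina1b and Fgb), and their sum was 1.73 to 4.68 RPM in control and 1.31 to 2.98 RPM with vitC. Primitive endoderm markers summed to 3.12 to 7.08 RPM against 4.77 to 11.6 RPM, trophoblast markers to 80.6 to 87.6 against 85.4 to 101 RPM, and fibroblast markers to 5.20 to 16.8 against 9.61 to 14.4 RPM. Markers of the two-cell-like state summed to 0 to 0.973 RPM in control and 0.632 to 4.66 RPM in vitC libraries, with Tcstv1, Tcstv3 and Zfp352 at 0 throughout. No marker of these lists passed limma with Benjamini-Hochberg adjustment at 0.05 without pairing. With the replicate block 2 pluripotency markers and 1 each of primitive endoderm, trophoblast and the two-cell-like state were higher, and 4 pluripotency markers were lower. Among the lower were Nanog (mean 476 RPM in control, 393 with vitC, limma adjusted p = 0.000647 with the block) and Pou5f1 (1047 and 958 RPM, 0.0221). Over all genes tested the block called 6.36% higher and 4.44% lower. Whether the small marker sums had a part in the members' rise was not tested. In such bulk libraries, more cells with a transcript and more RNA per cell cannot be told apart.

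The 7 genes lie on 7 different chromosomes, with coordinates from RefSeq on GRCm38.p6, the assembly of the mm10 build the reads were mapped to. Serpina3m is at chr12:104387157-104394259 on the plus strand and C130073F10Rik at chr4:101890020-101893789 on the minus strand. Cyp2b23 is at chr7:26665227-26686430 on the minus strand, and Gm20548 at chr5:101826183-101844553 on the plus strand. Qpct is at chr17:79051906-79090378 on the plus strand, Akr1c18 at chr13:4132615-4150646 on the minus strand, and Gm281 at chr14:13828428-13914521 on the minus strand. The promoter windows of 4 of them, 250 bases before to 50 after the annotated start, are shown as a description. DNA methylation was not measured in these libraries. Each window is given 5′ to 3′ on the minus strand from RefSeq on GRCm38.p6, with CG in capitals.
C130073F10Rik, chr4:101893740-101894039: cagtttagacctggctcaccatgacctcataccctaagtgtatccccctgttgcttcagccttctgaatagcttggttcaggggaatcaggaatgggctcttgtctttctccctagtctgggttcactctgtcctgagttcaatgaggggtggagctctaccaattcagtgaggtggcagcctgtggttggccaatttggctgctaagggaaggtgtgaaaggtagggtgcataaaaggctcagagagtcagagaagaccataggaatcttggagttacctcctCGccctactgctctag
Cyp2b23, chr7:26686381-26686680: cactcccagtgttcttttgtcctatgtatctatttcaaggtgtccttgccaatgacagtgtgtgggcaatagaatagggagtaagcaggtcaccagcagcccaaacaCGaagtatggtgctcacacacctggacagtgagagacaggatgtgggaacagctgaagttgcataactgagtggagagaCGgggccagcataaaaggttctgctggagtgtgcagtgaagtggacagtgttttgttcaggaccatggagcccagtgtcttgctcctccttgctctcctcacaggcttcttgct
Akr1c18, chr13:4150597-4150896: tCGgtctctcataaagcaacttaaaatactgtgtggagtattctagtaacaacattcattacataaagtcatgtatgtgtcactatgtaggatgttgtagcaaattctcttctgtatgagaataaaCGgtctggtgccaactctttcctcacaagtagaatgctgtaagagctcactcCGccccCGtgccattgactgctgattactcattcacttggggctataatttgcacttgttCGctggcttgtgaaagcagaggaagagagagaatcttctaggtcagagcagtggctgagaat
Gm281, chr14:13914472-13914771: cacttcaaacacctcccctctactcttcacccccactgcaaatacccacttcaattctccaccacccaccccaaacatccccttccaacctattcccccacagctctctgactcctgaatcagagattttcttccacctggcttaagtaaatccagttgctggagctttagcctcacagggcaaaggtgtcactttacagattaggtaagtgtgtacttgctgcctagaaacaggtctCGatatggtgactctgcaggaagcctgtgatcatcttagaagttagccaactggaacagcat
Serpina3m, Gm20548 and Qpct had no entry in the promoter table.

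C130073F10Rik and Gm281 held 1 CG each, Cyp2b23 2 and Akr1c18 5, beside a median of 7 (quartiles 3 and 20) over the 32851 promoters of the same length. The share of all promoters with as few CG was 14.1% for C130073F10Rik and Gm281, 23.3% for Cyp2b23 and 43.6% for Akr1c18. GC content was 51% for C130073F10Rik, 50.7% for Cyp2b23, 48.3% for Gm281 and 42.3% for Akr1c18. A search of both strands for the letters ACGTG found no match in the 4 windows, and 19.6% of all promoters held them. GCGTG was not found either and was in 32.4% of all promoters. The E-box CACGTG, each match of which is also a match to the first motif, was not found and was in 7.15% of all promoters. These counts describe the windows and were not tested against the response.

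The protease inhibitor Serpina3m went from no reads to a low level. It had 0 reads in each of the 4 control libraries and 34, 46, 6 and 20 reads in vitC replicates 1 to 4. In RPM the vitC libraries read 6.34, 7.89, 1.79 and 4.22, a mean of 5.06 ± 2.65 (SD, n = 4), against 0 in every control library. By group reads relative to depth, 106 reads were 41.7-fold a floor of 3 reads assumed for the whole control group, which had none. The exact counting interval of the ratio began lower, at 33.3. Every vitC library lay above every control library, with replicate 3 the lowest and replicate 2 the highest. Counting error alone (exact Poisson, 95%) gave 0.656 to 3.89 RPM for replicate 3 and 5.78 to 10.5 RPM for replicate 2, so those libraries differed by more than counting error. Of the 1610 stretches of 50 bases in the Serpina3m transcripts 307 (19.1%) also occurred in another gene, 257 of them in Serpina3k, and in GENCODE the gene's model begins at the start of Serpina3k, so the split of reads between these genes is uncertain.

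Akr1c18, the progesterone-inactivating reductase, behaved likewise. It had 0, 1, 0 and 0 reads in control replicates 1 to 4 and 17, 20, 14 and 14 reads in vitC replicates 1 to 4. In RPM this was 0.193 in control replicate 2 and 3.17, 3.43, 4.17 and 2.95 with vitC, a vitC mean of 3.43 ± 0.532 (SD, n = 4). The ratio of group reads, 65 against 1, was 76.7 with a counting interval of 13.3 to 3076, wide because it rests on 1 control read. No vitC library came near the control libraries, and the 4 vitC values lay close together. Only 7 of 1205 stretches of 50 bases (0.581%) were shared with another gene, Akr1cl.

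The P450 Cyp2b23 reached the highest RPM of the 7. Control replicates had 14, 22, 7 and 11 reads and vitC replicates 93, 144, 66 and 94. The RPM were 2.27, 4.24, 1.56 and 1.59 against 17.3, 24.7, 19.7 and 19.8, with means of 2.41 ± 1.26 and 20.4 ± 3.10 (SD, n = 4 each) and a fold of 8.68 (counting interval 6.52 to 11.8). Replicate 2 was the highest in both groups, and the groups did not overlap. Of its stretches of 50 bases 95 of 2140 (4.44%) recurred elsewhere, 55 of them in Cyp2b19.

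The peptide cyclase Qpct was read in every library. Control replicates had 9, 5, 6 and 16 reads and vitC replicates 52, 59, 35 and 63. The RPM were 1.46, 0.964, 1.34 and 2.31 against 9.70, 10.1, 10.4 and 13.3, with means of 1.52 ± 0.570 and 10.9 ± 1.63 (SD, n = 4 each) and a fold of 6.85 (counting interval 4.79 to 10.1). Replicate 4 was the highest in both groups, and the lowest vitC library was well above it in the control group. None of its stretches of 50 bases recurred in another gene.

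C130073F10Rik had the largest rise in RPM after Cyp2b23. Its reads were 6, 5, 0 and 4 in control replicates 1 to 4 and 116, 95, 33 and 65 in vitC replicates 1 to 4. The RPM were 0.973, 0.964, 0 and 0.578 against 21.6, 16.3, 9.84 and 13.7, with means of 0.629 ± 0.458 and 15.4 ± 4.95 (SD, n = 4 each) and a fold of 24.3 (counting interval 14.5 to 44.0). Both vitC libraries of the first culture set were above both of the second, and replicate 3 was the lowest in both groups. Of its stretches of 50 bases 8 of 864 (0.926%) recurred in another gene.

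The non-coding RNA Gm20548 had 3, 5, 8 and 7 control reads and 69, 93, 42 and 63 vitC reads. The RPM were 0.487, 0.964, 1.78 and 1.01 against 12.9, 16.0, 12.5 and 13.3, with means of 1.06 ± 0.536 and 13.7 ± 1.57 (SD, n = 4 each) and a fold of 13.7 (counting interval 8.94 to 22.0). The vitC libraries lay close together and far above the control libraries. Gm20548 overlaps the 3′ end of Wdfy3, a gene for an autophagy scaffold transcribed from the other strand, and the strand setting of the counting is not given in the sources used here, so reads of the pair could have been exchanged.

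Gm281 had the smallest fold of the 7 and the most even vitC values. Its control replicates had 8, 11, 6 and 7 reads and its vitC replicates 39, 39, 25 and 34. The RPM were 1.30, 2.12, 1.34 and 1.01 against 7.27, 6.69, 7.45 and 7.17, with means of 1.44 ± 0.475 and 7.15 ± 0.324 (SD, n = 4 each) and a fold of 5.05 (counting interval 3.42 to 7.68). All vitC libraries sat together above all control libraries. Neither Gm281 nor Gm20548 had a stretch of 50 bases that recurred in another gene.

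**Figure D1:**
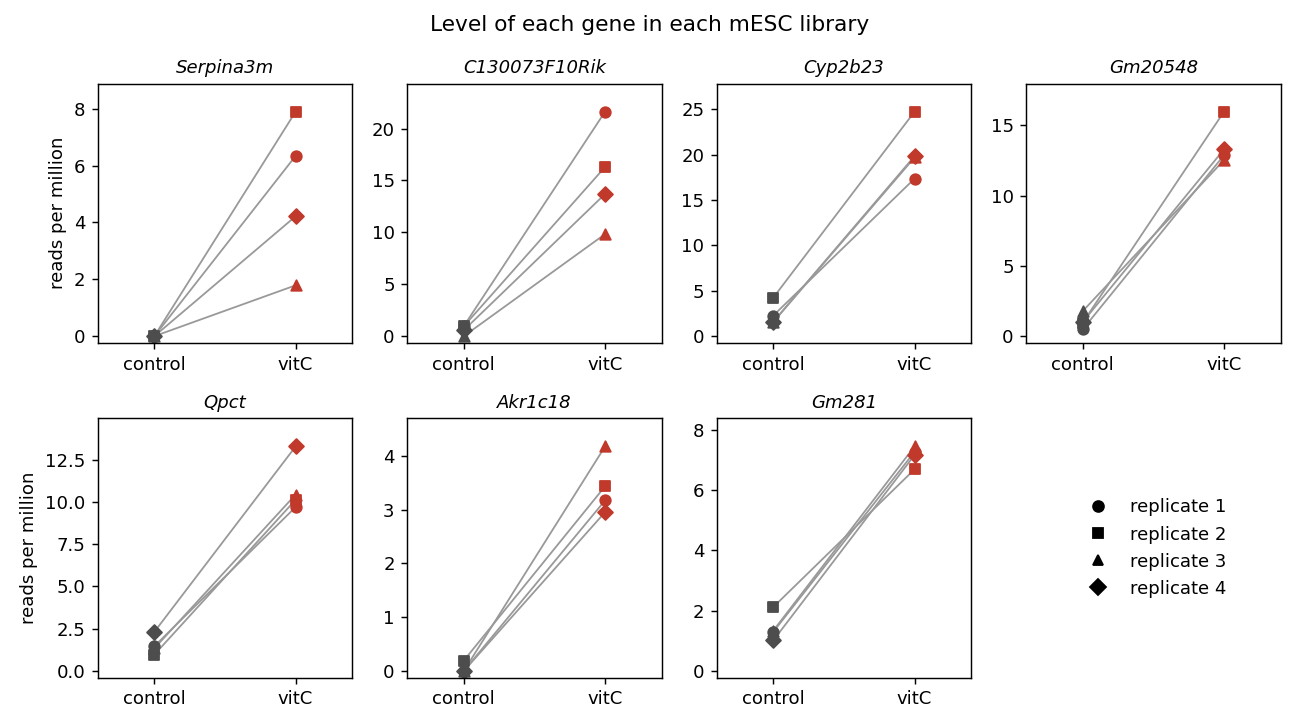
Level of each of the 7 genes in each mESC library in RPM (vertical axis, 1 panel per gene, each with its own scale starting at 0), with control at the left and vitC at the right. Symbols mark replicates 1 to 4 and lines join libraries with the same culture label. Every line rises, Serpina3m starts at 0 in all 4 cultures, and its vitC values spread from 1.79 to 7.89 RPM while those of Gm281 stay between 6.69 and 7.45 RPM.

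Summed over the 7 genes, control libraries held 6.49, 9.44, 6.01 and 6.50 RPM and vitC libraries 78.3, 85.1, 65.9 and 74.4 RPM. On the deposited scale the difference between vitC and control means was 1.19 for C130073F10Rik, 1.08 for Cyp2b23, 1.00 for Gm20548, 0.84 for Serpina3m, 0.78 for Qpct, 0.67 for Akr1c18 and 0.56 for Gm281. Their median was 0.84, beside -0.00198 over the 14631 genes tested, and no test is attached to it, since the members were chosen on this contrast. All 7 were higher in 4 of 4 culture pairs and did not overlap between groups, as the choice requires, where the vitC libraries lay above all control libraries for 3.12% of all genes tested. Likewise all 7 were among the 47 genes (0.321%) called higher by limma without pairing and among the 931 (6.36%) called with culture pairs as a block, which only restates how they were chosen. Genes called lower were 3 (0.0205%) without pairing and 650 (4.44%) with the block. For 3 members, Serpina3m, Akr1c18 and C130073F10Rik, fewer than 4 control libraries held reads. As tested genes had to have reads in at least 4 of the 8 libraries, these 3 entered the test only with the help of their vitC libraries. Serpina3m did so through its vitC libraries alone.

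After treatment the members were not highly expressed genes. Of the genes with reads in any mESC library, 53.6% lay below Cyp2b23 in mean vitC RPM, 49.2% below C130073F10Rik and 47.6% below Gm20548. The share was 44.7% for Qpct, 40.1% for Gm281, 36.6% for Serpina3m and 32.8% for Akr1c18. Genes with control reads only counted as below. By mean control RPM over the same genes, the shares ran from 0% for Serpina3m and 6.70% for Akr1c18 to 30.3% for Cyp2b23. Per kilobase of GENCODE exon, the vitC level was 16.8 RPM for C130073F10Rik, 9.31 for Cyp2b23, 8.34 for Gm20548, 4.29 for Qpct, 2.94 for Serpina3m, 2.84 for Akr1c18 and 2.42 for Gm281. Across vitC libraries the coefficient of variation was 52.4% for Serpina3m, 32.2% for C130073F10Rik, 15.5% for Akr1c18, 15.2% for Cyp2b23, 14.9% for Qpct, 11.5% for Gm20548 and 4.53% for Gm281. By that spread, the steps from C130073F10Rik to Cyp2b23 and from Gm20548 to Qpct exceeded 1 SD of both genes, and the other steps in this order did not.

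**Figure D2:**
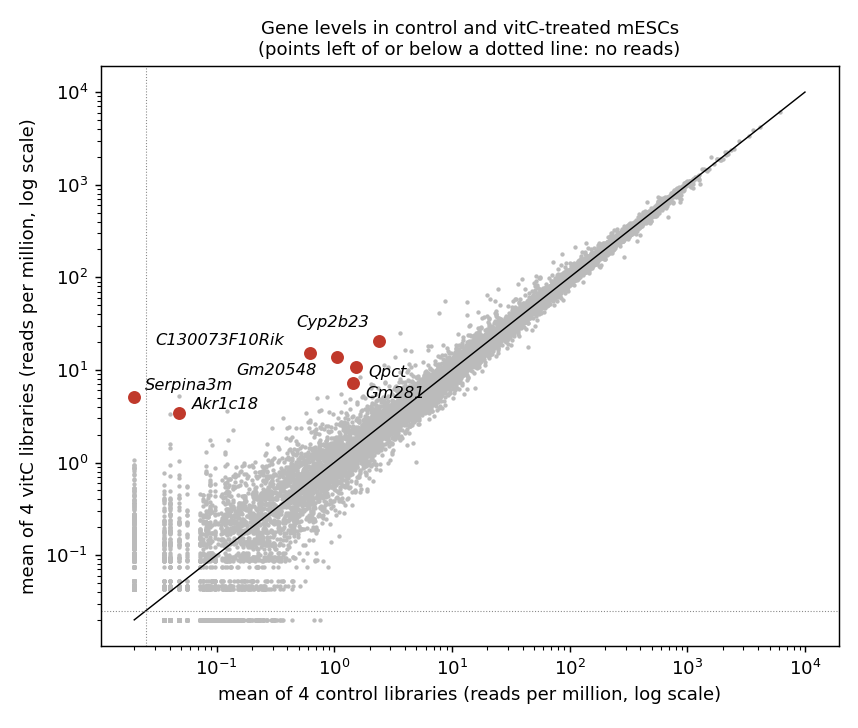
Mean level of each gene in the 4 vitC libraries (vertical axis) against the 4 control libraries (horizontal axis), in RPM on log axes, with the line of equal level. The 7 members, in red and named, lie above the line at control levels from no reads (left of the dotted line) to 2.41 RPM, and their vitC levels run from 3.43 to 20.4 RPM, amid genes of low and middle level.

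The response was next compared between the culture sets. The choice of members used the mean rise and not the difference between sets, but a gene with a clear rise in every culture was more likely to be chosen, so the comparison is not fully independent of the choice. In the first set the deposited values differed between vitC and control by 1.02 for Serpina3m, 1.23 for C130073F10Rik, 1.00 for Cyp2b23, 1.10 for Gm20548, 0.77 for Qpct, 0.62 for Akr1c18 and 0.51 for Gm281. In the second set the differences were 0.65, 1.14, 1.16, 0.90, 0.78, 0.73 and 0.61 in the same order of genes. Thus 4 members had the larger difference in the second set and 3 in the first. The effect of vitC differed between sets for 0 of 7 members and for 0% of the 14631 genes in limma after Benjamini-Hochberg adjustment. At an unadjusted p under 0.05 there were 601 genes and 1 member, Serpina3m. EdgeR and DESeq2 on the recovered reads also called 0 genes, and with the replicate block limma called 13 genes and edgeR 35, with no member among them. For Serpina3m the difference of differences was -0.37 (SE 0.14), with a limma unadjusted p of 0.0184 and an adjusted p of 1.00. For the other members it ran from -0.20 for Gm20548 to 0.15 for Cyp2b23. For Serpina3m, with all control values at 0, it rests on the 4 vitC values alone. With a pair of cultures in each set, a p that misses the threshold does not show that the sets respond alike.

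**Figure D3:**
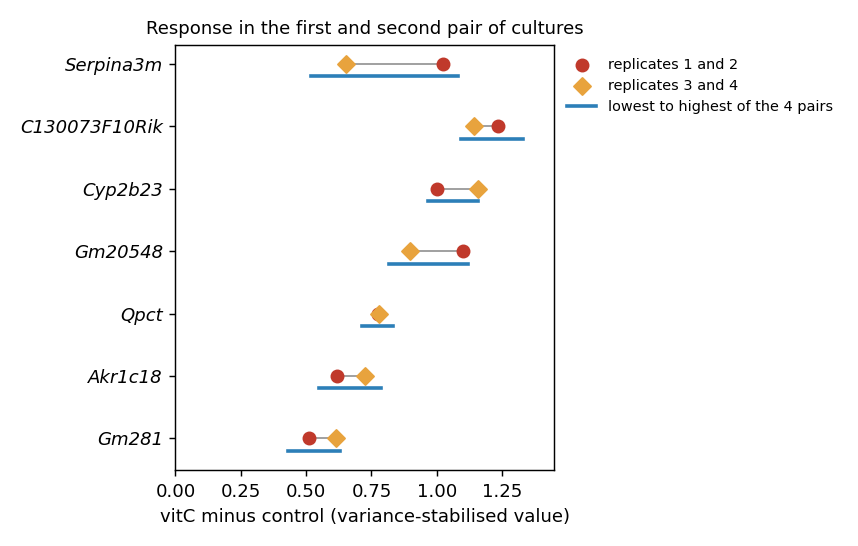
Difference between vitC and control on the deposited variance-stabilised scale (horizontal axis) for each member, averaged over replicates 1 and 2 (red circles) and over replicates 3 and 4 (orange diamonds), with a blue bar from the lowest to the highest of the 4 culture pairs. All points lie above 0, and the widest gap between sets is that of Serpina3m, 1.02 against 0.65.

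The level of the members at equal treatment was compared between the sets in the same fit. C130073F10Rik was lower in the second set by 0.28 on the deposited scale (SE 0.08, limma adjusted p = 0.00656), with vitC means of 19.0 RPM in the first set and 11.8 RPM in the second. For Serpina3m the difference was -0.18 (SE 0.07, limma adjusted p = 0.0470), with vitC means of 7.12 and 3.00 RPM. As all control libraries were at 0, the Serpina3m test rests on the same 4 vitC values as its difference of differences. This fit takes the 8 libraries as independent, although libraries of 1 culture varied together. On 1 mean of control and vitC per culture, 2 cultures a set, limma adjusted p was 0.0186 for C130073F10Rik and 0.0663 for Serpina3m, beside 32.8% of genes called, a fit added after the data were seen. The other 5 members had adjusted p from 0.159 to 0.791. Beside these 2 of 7 members, 39.7% of all genes tested differed between the sets, so the share among the members did not exceed the background. Neither call held in edgeR with its own scaling (adjusted p 0.0506 for C130073F10Rik and 1.00 for Serpina3m, where the all-0 control libraries leave the edgeR fit uninformative) or DESeq2 (adjusted p 0.0789 for C130073F10Rik and 0.741 for Serpina3m). Over 16 alternatives the adjusted p of C130073F10Rik ran from 0.00212 to 0.0789 and 14 passed, while that of Serpina3m ran from 0.0331 to 1.00 over 12 and passed in 2. Without any 1 of the control libraries it was 0.0886 to 0.0957, and without a vitC library Serpina3m no longer met the minimum of 4 libraries with reads.

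Next, the relatives of the members were examined, since they were no part of the choice. Of 23 listed paralogs of the Serpina3, Cyp2b, Akr1c and Qpct families, 22 were in the table, 14 had reads and 7 had enough to be tested. By limma without pairing 1 was higher, Akr1c13, and 0 were lower. With the replicate block Serpina3k was called too, on 9 vitC reads and 0 control reads. Over all genes tested 0.321% were called higher without pairing and 6.36% with the block. The median difference of the tested paralogs was 0.07. Akr1c13, an aldo-keto reductase gene 40.5 kb from Akr1c18, had 0, 1, 0 and 0 control reads and 29, 53, 8 and 18 vitC reads. Its vitC RPM were 5.41, 9.10, 2.38 and 3.79, above every control library. It rose by 0.81 on the deposited scale (SE 0.11, limma adjusted p = 0.0152, 3.41e-07 with the block), higher in 4 of 4 pairs, and the ratio of group reads was 127 with a counting interval of 22.4 to 5081. With a read in only 1 control library, Akr1c13 met the minimum of 4 libraries only through its vitC libraries. Both p-values are therefore not independent of its rise. The call was lost without control replicate 1 (adjusted p 0.0571), control replicate 3 (0.0729), control replicate 4 (0.0621) or vitC replicate 1 (0.0701), and over 17 alternatives the adjusted p ran from 8.15e-12 to 0.0729. Of the Akr1c13 stretches of 50 bases 347 of 1432 (24.2%) recurred in Akr1c12, and none was shared with Akr1c18. Akr1c12 itself had 1 control read and 15 vitC reads, and Akr1cl 7 and 14.

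The serpins nearest to Serpina3m moved less. Serpina3k had no control read and 3, 4, 1 and 1 vitC reads, a difference of 0.25 (limma adjusted p = 0.148, 0.0245 with the block), and it shares sequence with Serpina3m as given above. Like Serpina3m, it entered the test only through its vitC libraries, and these 9 reads carry both p-values. Over 13 alternatives the adjusted p of Serpina3k ran from 0.0245 to 0.617 and passed in 1. Serpina3i had 88 control and 69 vitC reads and Serpina3g 4 and 5, and neither passed the test. Cyp2b10, Cyp2b13 and Cyp2b19 had no control reads and 2, 1 and 1 vitC reads, too few to test, and Cyp2b9 had none. Qpctl, the Golgi counterpart of Qpct, had 199 control and 165 vitC reads and did not pass the test. So of the 4 families, only Akr1c had a second member called by limma without pairing.

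Of 19 genes whose lower annotated coordinate, on either strand, lay within 100 kb of a member's span, 13 had reads and 7 were tested. Akr1c13 was the 1 called higher without pairing. With the replicate block 4 were higher, Serpina3k, Wdfy3, Akr1c13 and Atxn7, and 1 was lower, Cds1. Over all genes tested the block called 6.36% higher and 4.44% lower. Serpina3k and Akr1c13 are the paralogs already counted above. The median difference of the tested neighbours was 0.17. Cds1, a phospholipid synthesis gene 2325 bp from Gm20548, had a mean of 13.6 RPM in control and 8.43 RPM in vitC libraries, a difference of -0.26 (SE 0.11, limma adjusted p = 0.605, 0.0228 with the block). Wdfy3, which overlaps Gm20548, read 144 ± 23.1 RPM and 164 ± 23.4 RPM (SD, n = 4 each), a difference of 0.17 (SE 0.12, limma adjusted p = 0.819, 0.0111 with the block). Atxn7, 46.8 kb from Gm281, read 11.8 and 16.0 RPM, a difference of 0.20 (limma adjusted p = 0.329, 0.0153 with the block). Gm11100, beside Gm281, and Vmn1r185, beside Cyp2b23, had no reads, and so had B020004J07Rik on one side of C130073F10Rik, while Gm12794 on its other side had 0 control and 6 vitC reads. Serpina3n, next to Serpina3m, had 0 control reads and 1 vitC read, and Akr1c14, on the side of Akr1c18 away from Akr1c13, had 2 in each group. Prkd3, nearest to Qpct on the left and outside the 19 by its lower coordinate though its other end is 31.1 kb away, had 1394 control and 1298 vitC reads, and Cdc42ep3 on the right 201 and 174.

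**Figure D4:**
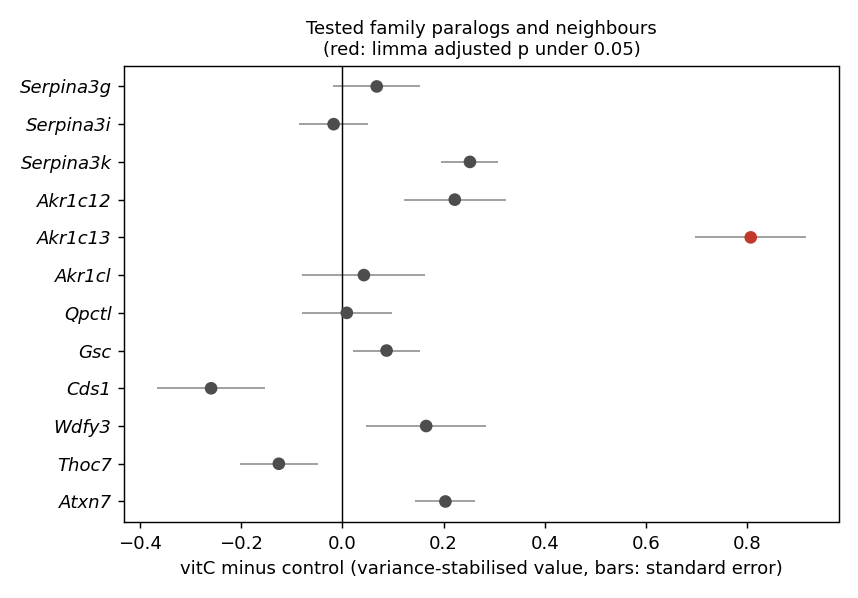
Difference between vitC and control on the deposited variance-stabilised scale (horizontal axis; bars are 1 standard error from limma) for the tested family paralogs and the tested genes near a member. Akr1c13, in red, at 0.81, is the 1 gene with a limma adjusted p under 0.05 without pairing, and the others lie between -0.26 and 0.25. Akr1c13 and Serpina3k met the filter for testing only through their vitC libraries.

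In the wider gene groups to which the named enzymes belong, no gene was called without pairing. Of 28 genes of steroid and xenobiotic metabolism 23 were tested and 0 were called higher or lower by limma, with 1 at an unadjusted p under 0.05 and a median difference of 0.01, and edgeR on the recovered reads called 0. With the replicate block Ephx1, an epoxide hydrolase, was lower (-0.20, limma adjusted p = 0.0340 with the block). Of 18 other serpins 12 were tested and 0 were called by limma, with 1 at an unadjusted p under 0.05 and a median of -0.01, and edgeR called 0. With the block Serpinb8 (0.30, adjusted p = 0.00363), Serpinb6a (0.16) and Serpinb9b (0.17) were called higher by limma, beside 6.36% of all genes tested.

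Other genes fell within the members' limits of abundance in each group. There were 58 with a control sum no higher than that of the highest member (9.66 RPM over 4 libraries) and a vitC sum no lower than that of the lowest (13.7 RPM). These limits require a rise with vitC, so calls among the 58 in part restate how they were picked. By limma 5 were called higher without pairing and 38 with the replicate block, where 0.321% and 6.36% of all genes tested were called. The 5 with the most vitC RPM were Khdc1c with 39 control and 187 vitC reads, Aass with 46 and 137, AV320801 with 49 and 143, Gm364 with 47 and 128, and Magea4 with 54 and 125. Of Khdc1c's 187 vitC reads, 186 came from the first culture set, as did 38 of its 39 control reads. Aass, a lysine breakdown enzyme, rose by 0.47 (limma adjusted p = 0.0491, 4.23e-05 with the block). It did not pass in edgeR without pairing (adjusted p 0.0907). Among the 58, a fold of group reads at or above that of Gm281, the lowest of the members, was reached by genes that included Khdc1c, Akr1c13, AI662270 (20 and 100 reads), Plxnc1 (18 and 106) and Nckap5 (17 and 74), named after their values were seen.

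The pattern of the members over the 8 libraries was compared with all other genes tested, using Pearson's r with the mean of the members' standardised values. The likest were Gm13227 (r = 0.995, 381 control and 822 vitC reads), Rpl39l (r = 0.993, 452 and 1281 reads), Ube2dnl (r = 0.985, 1 and 66 reads), Dmrtc1b (r = 0.981, 0 and 7 reads) and Gm8603 (r = 0.980, 0 and 10 reads). Between pairs of members r ran from 0.908 to 0.994. The points fall into control and vitC clusters and share library depth, so these r largely restate the difference between groups and describe the likeness only.

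In hESCs, counterparts of the mouse families were read with 1 library a group and so with no test. SERPINA3 and QPCT had 0 reads in both libraries, which allows up to 0.195 RPM in the control and 0.175 RPM in the vitC library. CYP2B6 had 8 control and 10 vitC reads, a ratio of 1.12 with a counting interval of 0.397 to 3.26. AKR1C1 had 22 and 27 reads (ratio 1.10, 0.602 to 2.02), AKR1C2 12 and 13, AKR1C3 10 and 7, and AKR1C4 2 and 0. QPCTL had 209 and 169 reads, a ratio of 0.723 (0.587 to 0.890). The totals were 15367652 and 17188555 reads, deeper than any mouse library. These are family counterparts by name, from another line and medium, and the 2 species were not compared by a test.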

How the data were processed

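RNA was measured in 8 E14 mESC libraries (4 control, 4 vitC) and 2 H9 hESC libraries, prepared with a directional kit, and all were assigned from their labels. The authors counted reads on mm10 (mouse) or hg38 (human) using SQuIRE (version not given in the sources used here), and the submitters' processing notes name Trim Galore, HISAT2 and DESeq2. The deposited gene values are variance-stabilised, close to log2 at high counts. For repeats they deposited expected counts, used here for the aligned library size only, and 4 other per-sample columns were not used. Inverting the transformation, with the lowest step of a library taken as 1 read, gave whole reads (within 0.001 read) for 100% of 116385 mouse and 38034 human values.

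In R 4.3.3, the deposited values were fitted with limma 3.58.1 (lmFit, then eBayes with its trend option) for the 14631 genes that had reads in 4 or more libraries, with Benjamini-Hochberg adjustment and a threshold of 0.05. Its p-values measure the spread between these cultures of 1 line. The recovered reads were tested with edgeR 4.0.16 and DESeq2 1.42.0 as alternatives. Same-numbered control and vitC libraries share a culture label. After subtraction of group means they correlated at 0.626 to 0.765 in the 4 pairs. Differently numbered control and vitC libraries of the same set correlated at 0.574 to 0.665, and those of different sets at -0.709 to -0.546. Much of the correlation within pairs thus goes with the sets. Values with a replicate block, which takes up both, are given where they change a call. Intervals are exact at 95% and, like the floor of 3 reads, cover counting error only. Library depth was 3354852 to 6921305 gene reads in mESCs. Members and lists were chosen with earlier results of these data known. Named were the members, paralogs called or with at least 20 reads and others at 0 or few reads for completeness, neighbours called or nearest, list genes called, and the 5 genes of likest pattern or highest vitC level at like abundance. A further gene is not reported here. Coordinates and promoters are RefSeq's on GRCm38.p6, exon lengths and strands GENCODE's.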

Additional observations from a re-analysis of the deposited data

Results flagged for a closer look

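Within each group of 4 mESC libraries, the highest and lowest value of each member was compared with the others, 14 groups in all. In 1 group a library stood apart by Dixon's criterion at 95%: control replicate 2 of Akr1c18, with 0.193 RPM, where the other control libraries had 0. That value is 1 read. Where the other libraries of a group are at 0, any read at all meets the criterion, so the flag was fixed by the zeros. The control group of Serpina3m, at 0 throughout, could not be judged. The rate of about 1 such case in 20 groups by chance is for continuous values and does not hold for counts this low.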

How the results depend on the processing

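The members' median difference of 0.84 on the deposited scale was 3.72 in edgeR, 3.76 in DESeq2, 3.70 in edgeR with the aligned library size, 3.68 and 2.47 on log2 of RPM plus 0.1 and plus 1, and 1.00 in replicates 1 and 2 only. The first 5 are other scales, which compress low counts less. Without each replicate in turn it was 0.79 to 0.95. Genes called higher numbered 47, against 102 in DESeq2, 20 in edgeR with the aligned library size, 931 with the replicate block, 1059 in edgeR with the block and 19 to 28 without a replicate. Genes called lower numbered 3, against 5 after quantile normalization, 16 in DESeq2, 650 and 888 with the block in limma and edgeR, and 0 to 1 without a replicate. Genes whose effect differed between culture sets were 0, against 13 and 35 with the block. Members called different between sets numbered 2, against 1 with a filter of at least 2 libraries, quantile normalization or 1 mean per culture (added after seeing the data), 0 in edgeR or DESeq2, and 1 to 2 without a replicate. Without vitC replicate 1, and in edgeR with the aligned library size, the 2 were C130073F10Rik and Cyp2b23. With the block in limma and edgeR, 2 and 2 paralogs, 4 and 3 neighbours, and 3 and 3 other serpins were higher, and 0 and 2 genes of steroid metabolism. Without a replicate, paralogs and neighbours called were 0 to 1. The block changed no call of a member, and where not given the cause was not tested. Depth limits the control levels: all members but Cyp2b23 had under 40 control reads in all.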
